A study of Mus musculus with 8 samples.

Results

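The protein genes of the cytosolic ribosome were compared between the 2 main subsets of mouse blood monocytes. Members were the probe sets whose only platform gene symbol began with Rpl or Rps followed by a number, or was Rplp0, Rplp1, Rplp2 or Rpsa. Kinases of the Rps6k family and symbols of pseudogenes (with -ps) were left out. The rule found 106 of 45037 probe sets, for 50 of 18193 genes, and used no measured value. Of the 50 genes, 21 encode proteins of the small subunit, 22 proteins of the large subunit and 6 are paralogs of subunit genes (Rpl3l, Rpl7l1, Rpl22l1, Rpl39l, Rps4l and Rps27l). The remaining gene, Rps19bp1, meets the rule by its name but encodes a binding partner of Rps19 and no ribosomal protein.

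The cells came from C57Bl/6 mice aged 12 weeks and were sorted into Gr1hi (Ly-6chi) and Gr1lo (Ly-6clo) monocytes. Gr1hi cells correspond to the classical monocytes known to enter inflamed tissue, and Gr1lo cells to the nonclassical monocytes known to patrol vessels. Each sort started from the combined leukocytes of 5 mice. There were 4 sorts and 4 arrays of each subset, 8 arrays in all. The labels give no treatment or genetic change, and a pool shows no spread between single mice. A value is the log2 of a probe set's intensity on a 3' expression array, and a difference is Gr1lo minus Gr1hi, so that a negative one means a higher signal in Gr1hi RNA. In each subset the array of the sample numbered 1 stood apart by the highest platelet, red cell, neutrophil and B cell marker levels. The mean of 6 platelet markers was 9.12 in Gr1hi replicate 1 against 7.99 to 8.52 in the other Gr1hi arrays, and 9.42 in Gr1lo replicate 1 against 8.12 to 8.84 in the other Gr1lo arrays. The mean of 5 red cell markers was 7.43 against 6.66 to 7.04, and 7.66 against 6.70 to 7.25. For 8 B cell markers it was 6.96 against 6.59 to 6.70, and 6.62 against 6.14 to 6.21. Counts are therefore also given without both samples numbered 1. Signals of different probe sets are not compared as levels of their genes. In sorted samples, fewer cells with a transcript and less of it per cell cannot be told apart.

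A ribosome is built from ribosomal RNA and a set of proteins, each present in a single copy apart from the acidic proteins of the stalk. The small subunit decodes the mRNA and the large subunit joins amino acids. Most ribosomal protein mRNAs begin with a run of pyrimidines, the terminal oligopyrimidine tract, through which mTORC1 and the protein Larp1 control their translation and storage. Their genes are transcribed at high rates in nearly all cells, and many have processed pseudogenes that closely resemble the mRNA. The suffixes _x_at and _s_at are the array maker's mark for probes that can match several transcripts. They were carried by 43 of the 106 probe sets (40 _x_at and 3 _s_at), 40.6% against 10.1% of all 45037.

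RefSeq promoter windows (GRCm38.p6, from 250 bases before to 50 after an annotated start) were matched for 44 of the 50 genes, with 52 windows. The stretch from 40 bases before the annotated start to the 20 bases that begin at it is shown for the 2 genes called higher in Gr1lo, for 5 subunit genes called higher in Gr1hi and for the 2 paralogs called. Capitals mark the longest uninterrupted run of at least 5 pyrimidines within 5 bases of the start. Each is printed 5′ to 3′ on the strand of the gene, and for Rps27l the first of 2 windows is shown.
Rps25 (chr9:44407674-44407733, + strand): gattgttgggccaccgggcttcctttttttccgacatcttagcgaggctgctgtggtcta
Rpl12 (chr2:32961672-32961731, + strand): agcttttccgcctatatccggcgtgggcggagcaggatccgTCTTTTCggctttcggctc
Rpl37 (chr15:5116573-5116632, + strand): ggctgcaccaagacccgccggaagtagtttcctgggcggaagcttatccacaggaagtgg
Rps9 (chr7:3704001-3704060, + strand): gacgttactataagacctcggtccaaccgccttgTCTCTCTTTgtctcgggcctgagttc
Rpsa (chr9:120127726-120127785, + strand): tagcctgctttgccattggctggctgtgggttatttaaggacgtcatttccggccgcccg
Rplp0 (chr5:115559427-115559486, + strand): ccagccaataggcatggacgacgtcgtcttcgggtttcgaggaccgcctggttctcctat
Rpl7a (chr2:26910767-26910826, + strand): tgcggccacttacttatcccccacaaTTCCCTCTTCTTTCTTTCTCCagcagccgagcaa
Rps27l (chr9:66946046-66946105, + strand): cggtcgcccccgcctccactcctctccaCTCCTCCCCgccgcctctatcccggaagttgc
Rpl22l1 (chr3:28805468-28805527, + strand): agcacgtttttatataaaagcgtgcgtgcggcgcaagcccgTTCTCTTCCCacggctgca
The window of Rpl7a has the longest run of these, 21 pyrimidines across the annotated start, while those of Rps25, Rpl37, Rpsa and Rplp0 have none within 5 bases of it. The windows shown are a selection, and none of them had a C at the annotated start followed by at least 4 pyrimidines. Of the 17 windows of genes called higher in Gr1hi, 3 did, those of Rpl14, Rps6 and Rps18, which are not shown. RefSeq starts may lie some bases from the start used in these cells.

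Over all matched windows, 21 of 52 (40.4%) had, on the sense strand, a C within 5 bases of the annotated start followed by at least 4 pyrimidines, against 18.3% of 32851 windows of all genes. With the C at the start itself the shares were 15.4% and 2.51%. The motif CCGGAAG, bound by ETS factors, was found on either strand anywhere in 40.4% of the ribosomal protein windows and in 8.86% of all. TATAAA, found likewise, was in 11.5% and 13.6%, and AGATGGC, the core of the YY1 motif, in 11.5% and 6.40%. On the opposite strand CCGGAAG reads CTTCCGG, which itself begins with a C followed by 4 pyrimidines, so a match of it near the start also counts as a pyrimidine run. Genes called higher in Gr1hi and genes not called had the pyrimidine run near the start in 47.1% of 17 and in 41.4% of 29 windows, and CCGGAAG in 41.2% and 41.4%. These shares describe letters in the windows and were not tested.

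Most ribosomal protein genes were not called between the subsets, and the differences of those that were called were mostly under 1.5-fold. Of 47 genes with a tested probe set, 14 were called higher in Gr1hi, 2 higher in Gr1lo and 31 were not called (limma, Benjamini-Hochberg adjusted p under 0.05 over all 22831 tested probe sets). Each gene was represented by its tested probe set of highest mean signal, an _x_at or _s_at one for 16 of the 47. Among the called genes these were Rps9, Rps18, Rps27l, Rpl22, Rpl37 and Rpl41. The share called, 16 of 47 or 34.0%, lay near the background, since 32.5% of all 11546 tested genes were called, 18.5% higher in Gr1hi and 14.1% higher in Gr1lo. The median difference over the 47 genes was -0.06, against -0.01 over all tested genes. Below 0 were 35 of the 47 differences, against 6085 of all 11546. A probe set was tested where it exceeded the median of the whole table (log2 6.36) in at least 4 arrays. Of the 106 probe sets 93 passed and 13 did not, and 3 genes (Rpl3l, known from muscle, Rpl39l, known from testis, and Rps16) had none that passed. Rps16 was dim only in its single-symbol probe set. The 2 annotated jointly to Rps16 and other symbols had means of 13.74 and 14.14 in Gr1hi and 13.78 and 14.14 in Gr1lo, and were not called (limma adjusted p = 0.65 and 0.96). No probe set passed through a single subset, as none of the 93 had a subset wholly under that median.

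**Figure D1:**
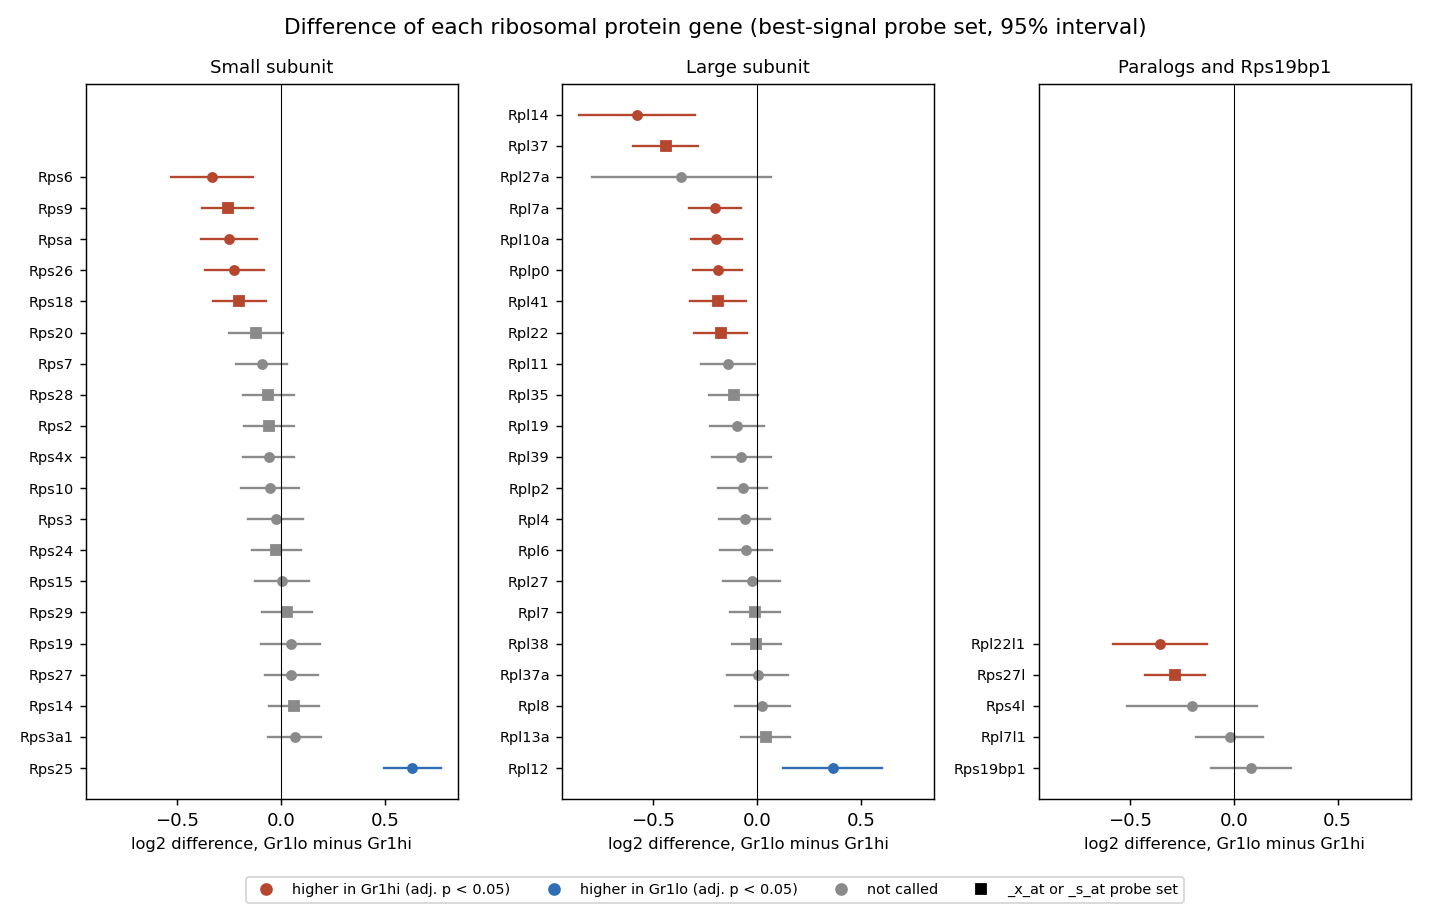
Log2 difference (Gr1lo minus Gr1hi) of each tested gene with its unadjusted 95% interval, from the probe set with the highest mean signal, in 3 panels for 20 small subunit genes, 22 large subunit genes, and 4 paralogs with Rps19bp1. Squares are probe sets that can match several transcripts. Most genes lie between -0.25 and 0.1, with Rps25 at 0.63 and Rpl14 at -0.58 as the extremes.

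In the small subunit, 5 of 20 tested genes were called higher in Gr1hi and 1 higher in Gr1lo, with a median difference of -0.06. The share called was 30%, near the 32.5% of all tested genes (18.5% higher in Gr1hi and 14.1% higher in Gr1lo). Rps9, a protein known for its part in decoding accuracy, stood at 13.55, 13.55, 13.51 and 13.59 in the Gr1hi arrays and at 13.25, 13.29, 13.32 and 13.33 in the Gr1lo arrays. The 2 subsets did not overlap, and the difference was -0.26 (SE 0.06, limma adjusted p = 0.0042), a 1.19-fold higher signal in Gr1hi. This was an _s_at probe set. A dimmer one of Rps9 was called at -0.50 (limma adjusted p = 0.0052), and an _x_at one, at -0.23, overlapped and was not called (limma adjusted p = 0.12). Rpsa, which is both a small subunit protein and known as the laminin receptor precursor, stood at 13.30, 13.15, 13.14 and 13.18 in Gr1hi. In Gr1lo it stood at 12.90, 13.01, 12.92 and 12.94, below every Gr1hi array (difference -0.25, SE 0.06, limma adjusted p = 0.0086).

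Rps6, the subunit protein that S6 kinase phosphorylates downstream of mTORC1, read 8.50, 8.44, 8.20 and 8.30 in Gr1hi. Its Gr1lo values were 7.87, 8.23, 8.03 and 7.99, so that Gr1lo replicate 2 lay above the lowest Gr1hi array (difference -0.33, SE 0.09, limma adjusted p = 0.015). The 8 tested probe sets annotated jointly to Rps6 and another symbol were brighter and not called (limma adjusted p of 0.081 or more), with differences from -0.24 to -0.04 and a median of -0.13. Rps26, which contacts mRNA at the exit channel, was 13.34 ± 0.06 in Gr1hi and 13.11 ± 0.08 in Gr1lo (log2 intensity, mean ± SD, n = 4 each; limma adjusted p = 0.020). Rps18, a protein of the head of the subunit, was 13.56 ± 0.04 and 13.36 ± 0.05 (n = 4 each; limma adjusted p = 0.022). For both genes the subsets did not overlap.

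Rps25, a protein known for its use in initiation at some internal ribosome entry sites, had the largest difference toward Gr1lo. Its probe set read 8.96, 9.01, 9.03 and 9.01 in Gr1hi and 9.51, 9.66, 9.65 and 9.71 in Gr1lo. The subsets were well apart, with a 1.55-fold higher signal in Gr1lo (difference 0.63, SE 0.06, limma adjusted p = 1.3e-05). The same was not seen in the other probe set of this gene, which is annotated jointly to Rps25 and provisional gene symbols and therefore is no member. That probe set read at most 13.02 in the Gr1hi arrays and from 12.97 to 13.12 in the Gr1lo arrays, which enclosed every Gr1hi value (difference 0.02, SE 0.06, limma adjusted p = 0.83). The difference between the 2 probe sets was not tested.

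In the large subunit, 7 of 22 tested genes were called higher in Gr1hi and 1 higher in Gr1lo, with a median difference of -0.09. The share called was 36.4%, near the 32.5% of all tested genes (18.5% higher in Gr1hi and 14.1% higher in Gr1lo). Rpl37, a zinc finger protein of this subunit, read 11.56, 11.66, 11.72 and 11.60 in Gr1hi and 11.22, 11.08, 11.33 and 11.13 in Gr1lo. The subsets did not overlap (1.36-fold, difference -0.44, SE 0.07, limma adjusted p = 5.7e-04). Of 3 probe sets annotated jointly to Rpl37 and Rpl37rt, 1 was called higher in Gr1hi (difference -0.22) and 2 were not called (differences -0.08 and 0.06).

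Rpl14 was measured as a member by a single dim probe set, which read 7.01, 7.05, 6.51 and 6.77 in Gr1hi and 6.20, 6.44, 6.01 and 6.38 in Gr1lo. The subsets did not overlap, and because the Gr1lo mean lay under the table median the fold is a lower bound of 1.39 (difference -0.58, SE 0.13, limma adjusted p = 0.0044). Of 5 brighter probe sets annotated jointly to Rpl14 and a pseudogene, 4 were called higher in Gr1hi, with differences from -0.27 to -0.21, and the fifth, at -0.07, was not called.

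The stalk of the large subunit recruits elongation factors. Rplp0, the scaffold of the stalk, read 13.82, 13.84, 13.86 and 13.88 in Gr1hi and 13.67, 13.65, 13.68 and 13.65 in Gr1lo. This small difference was free of overlap (-0.19, SE 0.05, limma adjusted p = 0.019). The acidic protein Rplp2 also did not overlap between subsets, with a difference of -0.07 that was not called (limma adjusted p = 0.37).

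Rpl12, at the base of the stalk, read 6.88, 7.15, 6.70 and 6.94 in Gr1hi and 7.04, 7.42, 7.24 and 7.42 in Gr1lo. The subsets overlapped, and the difference of 0.36 was called higher in Gr1lo (SE 0.11, limma adjusted p = 0.024). It came from a dim probe set, and 2 bright probe sets annotated jointly to Rpl12 had differences of -0.13 and -0.12, in the opposite direction, and were not called (limma adjusted p = 0.12 and 0.13).

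Among other large subunit genes, Rpl7a was 13.62 ± 0.05 in Gr1hi and 13.42 ± 0.03 in Gr1lo (n = 4 each; limma adjusted p = 0.017). Rpl10a differed by -0.20 (SE 0.06, limma adjusted p = 0.019), and neither gene overlapped between the subsets. Rpl41, which encodes the smallest protein of the ribosome, differed by -0.19 (limma adjusted p = 0.037), and Rpl22, an RNA-binding protein known for its role in lymphocyte development, by -0.18 (limma adjusted p = 0.039). Genes at the same bright end of the scale that were not called included Rpl37a, at 13.97 ± 0.07 and 13.97 ± 0.09 (n = 4 each), whose 95% interval ran from -0.15 to 0.15. Rps28 and Rps29, both small subunit proteins, differed by -0.06 (interval -0.18 to 0.06) and 0.03 (interval -0.09 to 0.15).

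**Figure D2:**
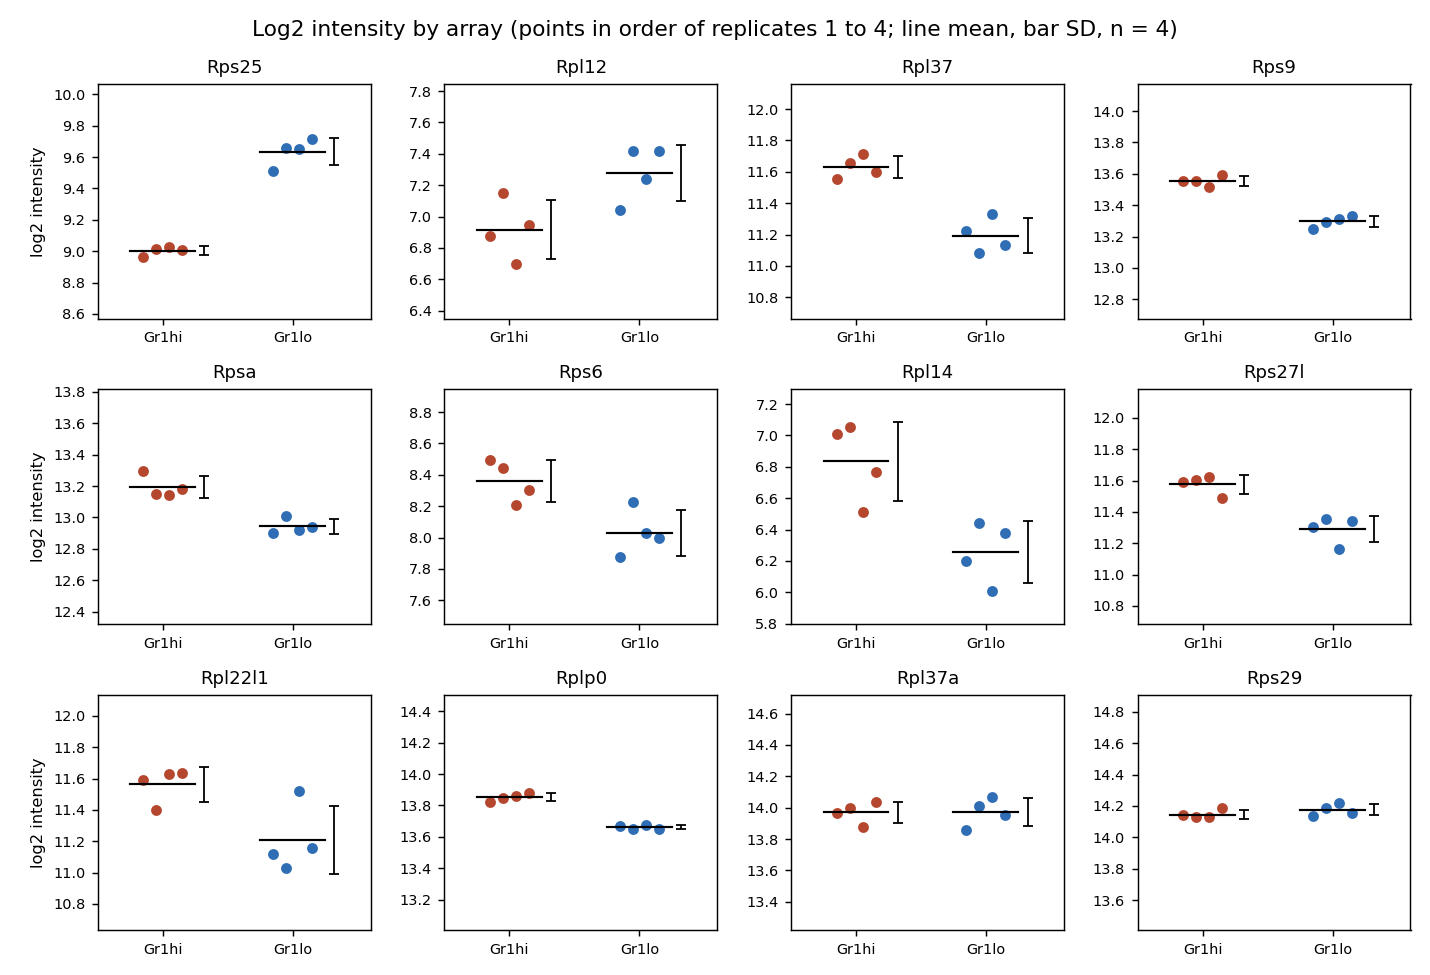
Log2 intensity of 12 genes in each array, 4 Gr1hi and 4 Gr1lo points per panel, with the mean as a line and the SD as a bar; every panel spans 1.5 log2 units. Rps25 is clearly higher in Gr1lo, Rpl37, Rps9, Rpsa and Rplp0 are higher in Gr1hi without overlap, Rpl12, Rps6 and Rpl22l1 overlap, and Rpl37a and Rps29 differ little.

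Paralogs can replace a subunit protein or serve in its assembly. Of the 4 tested, 2 were called (50%, against 32.5% of all tested genes), both higher in Gr1hi. Rps27l, a copy of Rps27 that p53 is known to induce, read 11.59, 11.60, 11.62 and 11.49 in Gr1hi and 11.31, 11.35, 11.17 and 11.34 in Gr1lo. The subsets did not overlap (difference -0.28, SE 0.07, limma adjusted p = 0.0058), and the other 2 probe sets of Rps27l were called in the same direction (-0.34 and -0.30). The parent gene Rps27 was not called by its own probe set (difference 0.05, limma adjusted p = 0.58). A bright probe set annotated jointly to Rps27 and Rps27rt read 13.60, 13.56, 13.49 and 13.47 in Gr1hi and 13.76, 13.77, 13.70 and 13.75 in Gr1lo. This probe set was called higher in Gr1lo (difference 0.21, SE 0.06, limma adjusted p = 0.016), opposite to Rps27l; the difference between the 2 genes was not tested.

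Rpl22l1, a copy of Rpl22, read 11.59, 11.40, 11.63 and 11.63 in Gr1hi and 11.12, 11.03, 11.52 and 11.16 in Gr1lo. Gr1lo replicate 3 lay within the Gr1hi range, and the difference was -0.35 (SE 0.10, limma adjusted p = 0.021), in the same direction as that of Rpl22. Rpl7l1, a factor of large subunit assembly, differed by -0.02 (limma adjusted p = 0.88) and Rps4l, a copy of Rps4x, by -0.20 (limma adjusted p = 0.34), and neither was called. Rps19bp1 was not called either (difference 0.08, limma adjusted p = 0.54).

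Probe sets of the same gene did not always give the same difference. Over probe sets, 23 of 93 were called higher in Gr1hi and 2 higher in Gr1lo, 26.9% in all against 31.1% of the whole tested table. Of the 42 that can match several transcripts 10 were called, all higher in Gr1hi, and of the other 51, 13 were called higher in Gr1hi and 2 higher in Gr1lo. Several probe sets were tested for 21 genes, of which 13 had none called, 2 (Rpl22 and Rps27l) had all called, 6 had some called, and none had calls in opposite directions.

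The spread was widest for Rps3, a protein of the mRNA entry channel, whose 3 probe sets ranged from -0.81 to -0.03. The called one read 7.76, 7.66, 7.55 and 7.83 in Gr1hi and 6.69, 7.04, 7.02 and 6.80 in Gr1lo (limma adjusted p = 4.4e-05), while its brightest probe set, at 13.48 ± 0.02 and 13.45 ± 0.07 (n = 4 each), differed by -0.03 (limma adjusted p = 0.80). Rpl13a, known also as a regulator of translation in interferon-treated monocytes, had differences from -0.68 to 0.07 over 4 probe sets. Its called probe set read 10.65, 10.71, 10.72 and 10.53 in Gr1hi and 10.07, 9.95, 9.93 and 9.96 in Gr1lo (limma adjusted p = 1.1e-05), and its brightest one differed by 0.04 (limma adjusted p = 0.64). With the average of a gene's probe sets, Rpl13a became called higher in Gr1hi (-0.19, limma adjusted p = 0.0096), as did Rps3 (-0.29, limma adjusted p = 0.0060). Rpl22 had a dim probe set that differed by -0.82 (limma adjusted p = 7.3e-06), beside -0.24 and -0.18 for the brighter ones. Which transcripts the dim probe sets match was not tested.

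**Figure D3:**
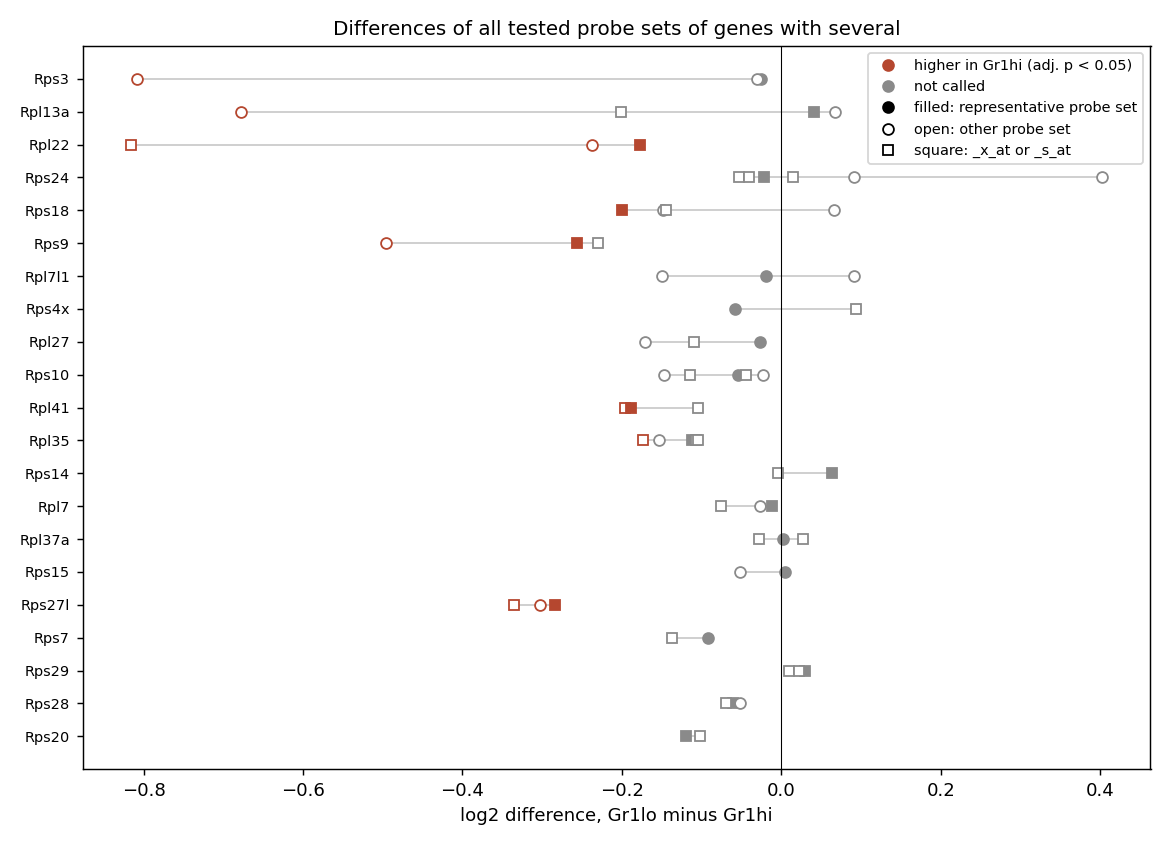
Log2 difference (Gr1lo minus Gr1hi) of each tested probe set of the 21 genes with several, in order of their range. Filled symbols are the probe sets that represent the gene, squares those that can match several transcripts; the ranges are 0.78 for Rps3, 0.75 for Rpl13a and 0.64 for Rpl22, and under 0.5 for every other gene.

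Differences of ribosomal protein probe sets spanned a narrower range at high signal than at lower signal. Of the 61 ribosomal protein probe sets with a mean over log2 12, 11 were called, all higher in Gr1hi, against 41.5% of the 460 tested probe sets of the whole table at that signal (22.4% higher in Gr1hi and 19.1% higher in Gr1lo). The 460 include the 61 and the jointly annotated ribosomal protein probe sets at that signal. The subsets did not overlap for 28 of the 61, 45.9% against 59.3% at that signal. The differences of the 61 lay between -0.26 and 0.07, with a median of -0.06 and 49 below 0. Those of the 460 had a median of -0.04, with 266 below 0. Of the 32 at or under log2 12, 14 (43.8%) were called, against 30.9% of the 22371 tested probe sets of the whole table at that signal. Of the 14, 12 were higher in Gr1hi and 2 higher in Gr1lo (15.8% and 15.1% of the whole table at that signal). The subsets did not overlap for 11 of the 32, 34.4% against 31.3%, and the differences lay between -0.82 and 0.63. The highest value in the whole table was log2 14.73, and the part of high signal in the small differences was not tested.

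For 21 of the 47 genes the 2 subsets did not overlap, 44.7% against 33.9% of all tested genes, and of these 13 were called and 8 were not. Over the 42 subunit genes (paralogs left out), the median deviation from a gene's own mean over 8 arrays was 0.04, 0.02, 0.03 and 0.06 in the Gr1hi arrays and -0.07, -0.00069, -0.03 and -0.04 in the Gr1lo arrays. Every Gr1hi array lay above every Gr1lo array, Gr1lo replicate 1 was lowest, and Gr1lo replicate 2 was closest to the Gr1hi arrays. The large subunit genes separated the subsets in the same way (0.03 to 0.07 against -0.08 to -0.03), while small subunit genes of Gr1lo replicate 2 (0.02) lay within the Gr1hi range of 0.0091 to 0.03. No such medians are given for all genes.

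**Figure D4:**
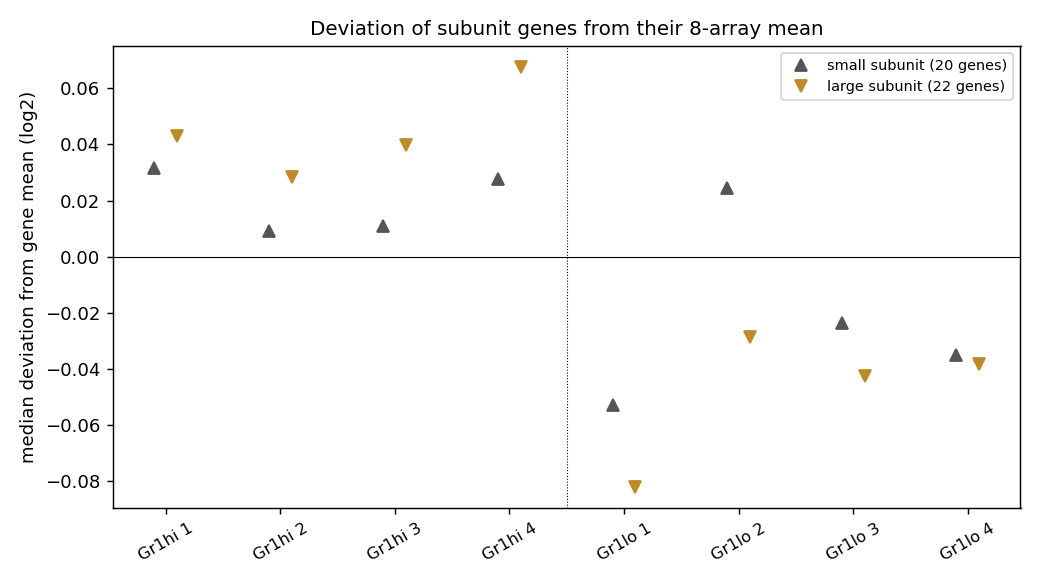
Median deviation (log2) of the 20 small subunit and 22 large subunit genes from their own 8-array mean, for each array. Triangles pointing up are small subunit genes, triangles pointing down large subunit genes; the 4 Gr1hi arrays lie above 0 for both, and the Gr1lo arrays below 0 except for the small subunit genes of Gr1lo replicate 2.

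The calls rested on single arrays to different degrees. Of the 16 called genes, 9 stayed called without any single array: Rps25, Rpl37, Rpl14, Rps9, Rpsa, Rps27l, Rps6, Rpl7a and Rplp0. The other 7 lost their limma call without at least 1 array. Rpl10a lost it without Gr1lo replicate 1 (adjusted p = 0.056), and Rps26 without Gr1hi replicate 4 or Gr1lo replicate 1 (adjusted p = 0.057 and 0.060). Rps18 lost it without Gr1hi replicate 1, Gr1lo replicate 2 or Gr1lo replicate 4 (adjusted p = 0.051 to 0.057), and Rpl12 without Gr1hi replicate 1 or 3 or Gr1lo replicate 2 or 4 (adjusted p = 0.053 to 0.074). Rpl22l1 lost it without Gr1hi replicate 3 or 4 or Gr1lo replicate 1, 2 or 4 (adjusted p = 0.051 to 0.065). Rpl22 lost it without each array except Gr1lo replicate 2 (adjusted p = 0.061 to 0.097), and Rpl41 without each except Gr1hi replicate 1 (adjusted p = 0.051 to 0.104). Rps18 was also not called after quantile normalization (limma adjusted p = 0.080), with the average of its probe sets (0.12) or with its probe set that is neither _x_at nor _s_at (0.064). Rpl22 and Rpl41 were not called with every probe set tested (limma adjusted p = 0.075 and 0.069), nor Rpl22 after median centring (0.051). Among large subunit genes 5 in place of 8 were called without Gr1hi replicate 3, without Gr1lo replicate 1 or without Gr1lo replicate 4. Without both samples numbered 1, which also leaves 3 arrays a subset and 5994 in place of 7108 calls in the whole table, 7 of 47 genes were called, 5 higher in Gr1hi (Rpl14, Rpl37, Rplp0, Rps9 and Rps27l) and 2 higher in Gr1lo (Rpl12 and Rps25).

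Genes that make, control or work with ribosomes were counted from lists of general knowledge, without a test of any list. Beside them, 32.5% of all tested genes were called, 18.5% higher in Gr1hi and 14.1% higher in Gr1lo, with a median difference of -0.01. Of 15 other mRNAs known to begin with a pyrimidine tract, 8 (53.3%) were called, all higher in Gr1hi, with a median of -0.26, and 3 of the 15 differences were above 0 (1 of them at an unadjusted p under 0.05). Btf3 and Naca, which together bind nascent chains at the ribosome, differed by -0.51 and -0.26, the nucleolar chaperone Npm1 by -0.35 and the initiation factor subunit Eif3e by -0.38. The intermediate filament Vim, the largest of this list, was 13.39 ± 0.09 in Gr1hi and 12.14 ± 0.09 in Gr1lo (n = 4 each; limma adjusted p = 1.5e-07). Fau, a ubiquitin-like fusion that yields a small subunit protein, was the only measured subunit gene outside the symbol rule from the list and was not called (difference 0.05, limma adjusted p = 0.60).

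Of 13 genes listed under elongation, termination and rescue, 4 were called higher in Gr1hi and 3 higher in Gr1lo (53.8% in all), with a median of -0.06. Not every gene listed is itself such a factor, as with Eef1e1. Eef2, which moves the ribosome along the mRNA, differed by -0.32 and the ribosome rescue factor Pelo by -0.49, while Eif5a and Eef1e1 differed by 0.31 and 0.36. Ribosome biogenesis genes had 9 of 46 called higher in Gr1lo and 5 higher in Gr1hi (30.4% in all, near the share of all genes), with a median of 0.11. Nop56 and Nolc1, both nucleolar, differed by 0.47 and 0.46, and Rsl24d1 and Rpf2, factors of the large subunit precursor, by -0.45 and -0.33. Of 18 genes of RNA polymerase I and its factors, 3 were higher in Gr1hi, led by Polr1d (-0.40) and Taf1d (-0.35), and 2 higher in Gr1lo, Polr1a (0.29) and Znrd1 (0.24), 27.8% in all, with a median of 0.02.

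Of 22 genes of mTORC1 and the Myc network, 4 were called higher in Gr1hi and 3 higher in Gr1lo (31.8% in all, near the share of all genes), with a median of -0.03. The translational repressor Eif4ebp2 and the mTOR inhibitor Deptor differed by -0.38 and -0.37, while the Myc antagonist Mxi1 and the mTORC1 activator Rheb differed by 0.78 and 0.33. Larp1, which binds pyrimidine tracts, differed by -0.29 (limma adjusted p = 0.013). Myc itself was too dim to be tested, at 6.38 ± 0.23 in Gr1hi and 6.27 ± 0.12 in Gr1lo (n = 4 each).

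**Figure D5:**
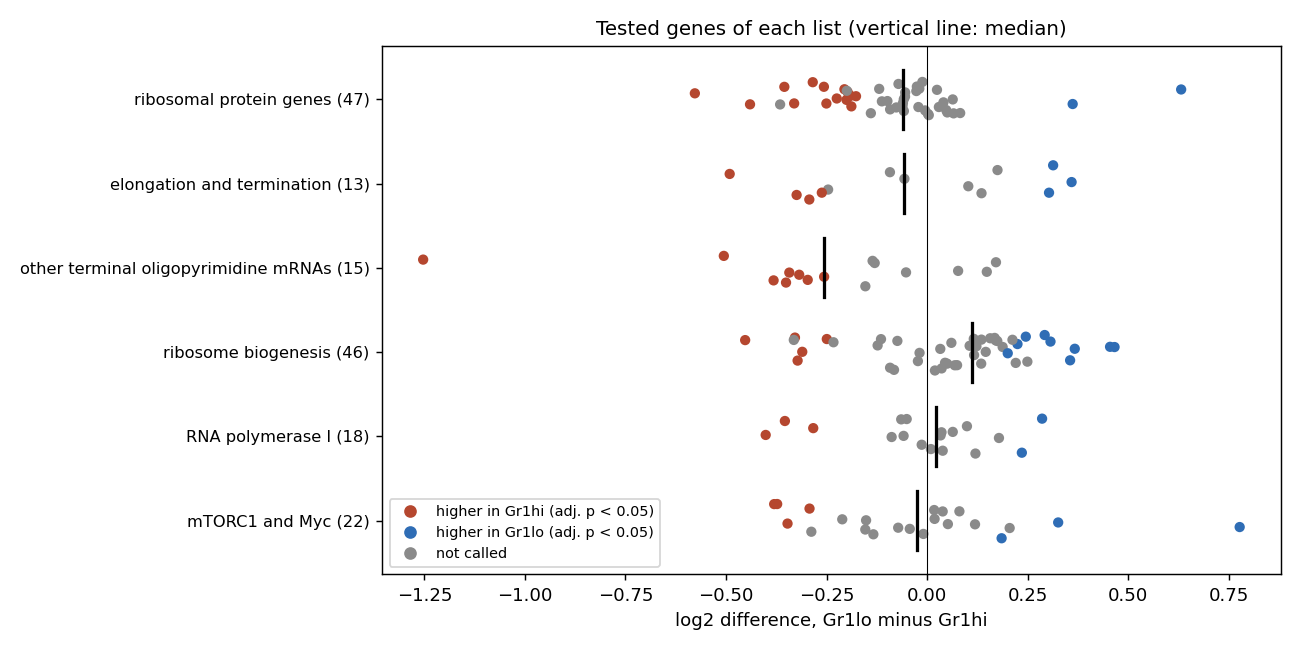
Log2 difference (Gr1lo minus Gr1hi) of every tested gene of the ribosomal proteins and of 5 lists, with the number tested in brackets and the median as a vertical line. The medians are -0.06, -0.06, -0.26, 0.11, 0.02 and -0.03 from top to bottom.

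The labelled cells were checked by their markers. Of 7 measured monocyte markers none lay under the table median in all arrays. The same held for the 8 measured T cell and 6 measured platelet markers, so this measure does not tell monocytes from other cells. Of the 7 monocyte markers, 3 were called higher in Gr1hi and 3 higher in Gr1lo. For the subsets, 3 of 3 measured markers of Gr1hi cells (Vcan, F13a1 and Ccr2) were called higher in Gr1hi. Of Gr1lo cells, 5 of 5 markers were called higher in Gr1lo. Neutrophil markers were called higher in Gr1hi for 4 of 9 tested, and the mean of the 11 measured ones ran from 7.39 to 7.77 in the Gr1hi arrays and from 6.22 to 6.67 in the Gr1lo arrays. The called ones differed by -4.71 (Cd177), -4.11 (Mmp8), -1.82 (S100a8) and -0.24 (Mpo), and the 5 not called by -0.79 to -0.03. B cell markers were called higher in Gr1hi for 2 of 5, with means over 8 genes of 6.59 to 6.96 and 6.14 to 6.62, and 3 of the 8 lay under the table median in all arrays. Progenitor markers were called higher in Gr1hi for 2 of 4 (means of 6.69 to 6.89 and 6.23 to 6.40; Kit, Cd34 and Myb lay under the median in all arrays). T cell, platelet and red cell markers (7, 6 and 3 tested) had 0 limma calls, and 1 of them, a T cell marker higher in Gr1lo, had an unadjusted p under 0.05. NK cell markers had 1 of 3 called higher in Gr1lo, and dendritic cell markers 2 of 5 higher in Gr1hi and 1 higher in Gr1lo. The difference of 3' and 5' control probe sets for Actb was 0.32 to 0.44 in Gr1hi and 0.26 to 0.34 in Gr1lo, and for Gapdh 0.03 to 0.36 and 0.08 to 0.14. The part of these markers and of RNA quality in the ribosomal protein differences was not tested.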

How the data were processed

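Each sample was hybridised to 1 Affymetrix mouse 3' array, after a lengthened in vitro transcription per the labels' protocols. The authors deposited 1 linear intensity per probe set and array, ranging from 8.64 to 27145. GCRMA and MAS5 appear in the submitters' processing notes; which of them gave these intensities, and how arrays were normalized, is not given in the sources used here. Array medians were 80.6 to 83.1. Arrays give no read depth, so precision is set by there being 4 arrays a subset; p-values cover the spread between these sorted pools.

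The log2 of each intensity was taken without a pseudocount, and 64 array controls were left out. Probe sets over the median of the remaining table in at least 4 of 8 arrays were tested with limma 3.58.1 in R 4.3.3 (lmFit, eBayes, no block, two-sided, Benjamini-Hochberg, threshold 0.05). A gene was represented by its tested single-symbol probe set with the highest mean. Gene symbols came from the platform annotation. Named were called genes (the 12 largest per direction), the 4 of highest signal, tested paralogs, the 3 with the widest spread of probe sets and the leading list members; other names, among them the jointly annotated probe sets, were chosen after their values were seen. Members and lists were chosen with earlier results of these data known. The workflow was tested on simulated data.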

Additional observations from a re-analysis of the deposited data

Results flagged for a closer look

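Among 46 sets of 4 arrays checked for the named genes (23 genes in each subset), 2 held an array far from the other 3, and chance alone marks about 1 in 20 such sets. Rpl22 stood at 13.10 in Gr1hi replicate 1, against 13.02 to 13.04 in the other 3 Gr1hi arrays. Rpl41 stood at 13.73 in Gr1lo replicate 1, against 13.85 to 13.86 in the other 3 Gr1lo arrays. Without Gr1hi replicate 1, Rpl22 was not called, and without Gr1lo replicate 1, Rpl41 was not called. Each of these 2 calls was lost without any 1 of 7 of the 8 arrays, so the loss was not particular to the flagged array.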

How the results depend on the processing

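Without 1 array, 19 to 22 ribosomal protein probe sets were called (25 with all arrays), 11 to 14 genes (16), 5 or 6 small subunit genes (6), 5 or 6 large subunit genes (8) and 36 to 41 genes of the pathway lists (41); in the whole table, called probe sets numbered 6229 to 6761 (7108). Without both samples numbered 1 the counts were 16 probe sets, 7 genes, 2 small subunit and 4 large subunit genes. At an adjusted p under 0.01 they were 13 of 93 probe sets, 6 of 47 genes, 3 small subunit and 2 large subunit genes. They were 25 for genes of the pathway lists. The whole table then had at least 4892 of 22831 probe sets called, the lowest count at any setting. With the replicate number as a block, 5 large subunit genes were called, with the calls of Rplp0 (limma adjusted p = 0.052), Rpl22 (0.081) and Rpl41 (0.061) lost. Nothing in the labels says that the numbers pair the samples, and same-numbered samples correlated at 0.27, 0.34, -0.03 and -0.10 in their deviations from the group means. The block gave 13 of 47 genes and 21 of 93 probe sets, and 7164 probe sets of the whole table. With jointly annotated probe sets added, an alternative chosen after seeing the data, 48 of 196 probe sets were called, 45 of them higher in Gr1hi. Rpl13a turned to -0.19 with the average of its probe sets, from 0.04. Trend and robust variance gave 20 of 47 genes and 35 of 93 probe sets. The whole table then had at most 7467 of 22831 probe sets called, the highest count at any setting. Other filters, scalings, a pseudocount of 16, array weights and probe sets that are neither _x_at nor _s_at kept each count within 1.5 times. Quantile normalization and median centring moved the median of all tested probe sets by less than 0.005. The cause of these changes was not tested, apart from fewer samples and the stricter threshold.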

Other observations

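Probe sets annotated to a ribosomal protein gene together with other symbols stand outside the rule. They number 110 and include 31 further gene symbols of ribosomal proteins, among them the copies Rpl32l, Rpl36al, Rpl37rt and Rps27rt. Of 103 tested, 22 were called higher in Gr1hi and 1 higher in Gr1lo (22.3%, against 31.1% of the whole tested table), with a median difference of -0.09. Those named here were chosen after their values were seen. All 4 probe sets annotated to Rpl29 were called higher in Gr1hi (-0.30 to -0.21), as were both of Rpl24 (-0.32 and -0.20) and the single ones of Rpl28 (-0.27) and of Rpl32 with Rpl32l (-0.27). A probe set annotated to Rpl36a, Rpl36al and Dnaaf2 differed by -0.44 (limma adjusted p = 1.5e-04), and another for Rpl36a and Rpl36al by -0.11 without a call. Of 4 probe sets for Rpl23, the dim one differed by -0.66 (limma adjusted p = 7.9e-04) and the 3 bright ones by -0.04 to 0.03. The 5 tested for Rps12, 5 for Rps21 and 4 for Rps13 had limma adjusted p of 0.096 or more, with differences from -0.15 to 0.05. Probe sets of 18S ribosomal RNA averaged log2 8.85 to 9.18 in the Gr1hi arrays and 8.85 to 9.29 in the Gr1lo arrays.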
